A study of Mus musculus with 6 samples.

Results

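The colon response to 22-B3, an engineered variant of the cytokine interleukin-22 (IL-22), was measured by RNA sequencing of whole tissue from C57BL/6 mice. All mice were labelled with that strain and tissue and with a treatment time of 6 h. The groups were 22-B3 at 200 µg per mouse, wild-type IL-22 (WT IL-22) at 200 µg per mouse, and phosphate-buffered saline (PBS), the vehicle. Each group had 2 libraries. The comparison described here set the 2 libraries of 22-B3 against the 2 of PBS, 4 of the 6 libraries in all. Of 35275 listed genes, the 15354 with a count of at least 10 in at least 2 of these 4 libraries were tested. WT IL-22 was used for the shared estimate of spread and, near the end, for the direct difference between variant and wild type. The labels do not tie libraries to single mice. The p-values therefore reflect variation from library to library alone, and that variation may be technical.

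IL-22 is made by lymphocytes but acts on epithelial cells, which carry its receptor, a pair of the chains Il22ra1 and Il10rb. The receptor works through the kinases Jak1 and Tyk2 and switches on the transcription factor STAT3, which induces its own inhibitor Socs3. In the gut the cytokine is known for antimicrobial proteins, mucus and fucose on epithelial glycans, and for division of crypt cells during repair.

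Total counts were 17428528 and 19022869 in the 22-B3 libraries, 20740041 and 22081904 in the WT IL-22 libraries, and 19329695 and 19744956 in the PBS libraries. The 2 libraries of 22-B3 were unlike each other and the 2 of PBS unusually alike. The biological coefficient of variation within a pair, the spread beyond counting noise, was 21.9% for 22-B3, 16.8% for WT IL-22 and 5.46% for PBS. Immunoglobulin variable segments, which differ between B cell clones and so between animals, had a Pearson r of log2 counts of -0.0365 across 93 segments within the 22-B3 pair, 0.165 across 102 within the WT IL-22 pair and 0.963 across 79 within the PBS pair. Segments are not independent replicates, and these values are a description. Whether the PBS libraries share an animal was not tested. For this reason the number of changed genes is given a second time below, with both PBS libraries added together as 1. Colon identity was checked on Car1, a fixed marker, and on Hoxb13, which was not among the fixed markers. Car1, a colonocyte carbonic anhydrase, had 786 and 1159 CPM (counts scaled to library size by edgeR's TMM method) with 22-B3, against 1446 and 1394 CPM with PBS. The distal Hox gene Hoxb13 had 454 and 387 CPM with 22-B3, against 379 and 383 CPM with PBS. Of 6 posterior Hox genes tested 0 were called, and in each 22-B3 replicate 1 stood above replicate 2. The gap was widest in Hoxd12, with 14.1 and 4.84 CPM with 22-B3, against 4.97 and 5.24 CPM with PBS. Of 67 markers fixed for colonic and other cell types, 59 were tested, 0 were called higher and 1, the mast cell protease Mcpt2, was called lower.

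Across the 15354 genes, edgeR's quasi-likelihood test with Benjamini-Hochberg adjustment called 150 genes higher with 22-B3 than with PBS (0.977% of those tested) and 24 lower (0.156%), at an adjusted p under 0.05. All further adjusted p values are from this test unless another is named. Of these calls, 110 rises exceeded a log2 change of 1 and 19 falls were below a log2 change of -1. In every called gene both 22-B3 libraries lay on the same side of both PBS libraries. That alone was common, since both 22-B3 libraries lay above both PBS libraries in 4300 genes (28% of those tested) and below both in 3926 (25.6%). The median of the 150 rises was 1.36 on the log2 scale in 22-B3 replicate 1 and 1.21 in replicate 2, and 98 of them were larger in replicate 1. The median of the 24 falls was -1.66 in replicate 1 and -1.42 in replicate 2. With the PBS libraries summed, 2 genes were called higher (0.013%) and 3 lower (0.0195%), all among the calls above. Then 1002 of the 15354 genes had an unadjusted p under 0.05, against 2848 with the PBS libraries apart. Counts of list genes called, or at an unadjusted p under 0.05, are to be read beside these values over all tested genes. The number of calls also moved with the 22-B3 libraries: 214 higher (1.39%) and 63 lower (0.41%) without replicate 1, and 1448 higher (9.43%) and 870 lower (5.67%) without replicate 2. DESeq2 called 557 higher (3.63%) and 139 lower (0.905%), and edgeR with upper-quartile scaling called 92 higher (0.599%) and 29 lower (0.189%). Upper-quartile scaling put the median log2 change of all genes at -0.107, against 0.01 with TMM, and under it Duoxa2, Ccne1, Gar1, Hsp90b1, Creld2, Mars, Nars, Il18bp, Pold1, Rpa1 and Pole2, named as called below, did not pass. Without 22-B3 replicate 1, Tmem181b-ps, Duoxa2, Gar1 and Il18bp did not pass.

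**Figure D1:**
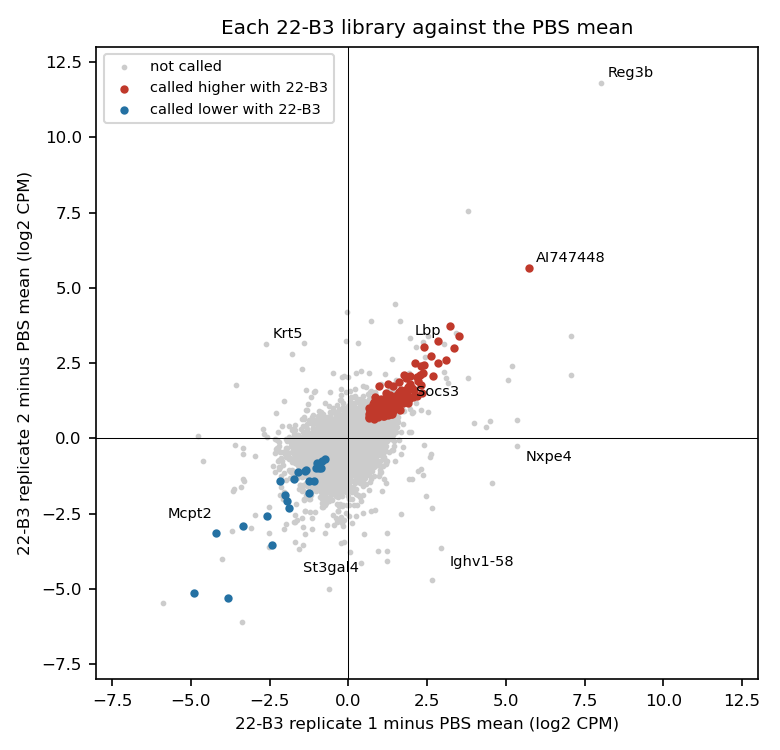
Each point is 1 of 15354 genes, with its log2 CPM in 22-B3 replicate 1 (horizontal axis) and replicate 2 (vertical axis) minus the mean log2 CPM of the PBS libraries. The 150 genes called higher lie in the upper right and the 24 called lower in the lower left, while Nxpe4, St3gal4 and Krt5 lie far from the diagonal because the 2 libraries differ.

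Among the genes called higher the largest log2 change was that of AI747448 (ENSMUSG00000074195, chr3:144910921-144932529, mm10, minus strand). Its current name is Clca4b, of the family of calcium-activated chloride channel regulators. AI747448 had 118 and 109 CPM with 22-B3, against 2.15 and 2.02 CPM with PBS. The 22-B3 libraries lay close together and far above PBS, and the log2 change was 5.76 (SE 0.18; edgeR adjusted p = 4.31e-06). It was 1 of the 2 rises still called with the PBS libraries summed (edgeR adjusted p = 0.000447). It was the only called gene of 7 in its family, and its level is uncertain, since counting may have divided reads among paralogs. Clca3, the goblet cell member now named Clca1, had 5452 and 2974 CPM with 22-B3, against 5493 and 5578 CPM with PBS, and did not pass (edgeR adjusted p = 0.525).

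A sugar transporter and a purine enzyme were among the other large rises. Slc5a9, a sodium-coupled sugar transporter (chr4:111875375-111902918), had 40.5 and 28.8 CPM with 22-B3, against 4.87 and 4.41 CPM with PBS (log2 change 2.90, SE 0.26, edgeR adjusted p = 0.00197). Gda, guanine deaminase (chr19:21391307-21473445), had 258 and 208 CPM with 22-B3, against 56.2 and 54.1 CPM with PBS (log2 change 2.08, SE 0.16, edgeR adjusted p = 0.00156). In both genes replicate 1 stood above replicate 2, and the groups did not overlap. Syt12, of the synaptotagmin family of membrane traffic proteins, was a low-level gene, with 4.38 and 3.78 CPM with 22-B3 and 0.667 and 0.882 CPM with PBS (log2 change 2.39, SE 0.31, edgeR adjusted p = 0.00983). Slc7a9, a cystine and basic amino acid transporter subunit, had 11.1 and 9.84 CPM with 22-B3, against 3.85 and 4 CPM with PBS (log2 change 1.41, edgeR adjusted p = 0.0155), the only called gene of 18 amino acid transporters tested.

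**Figure D2:**
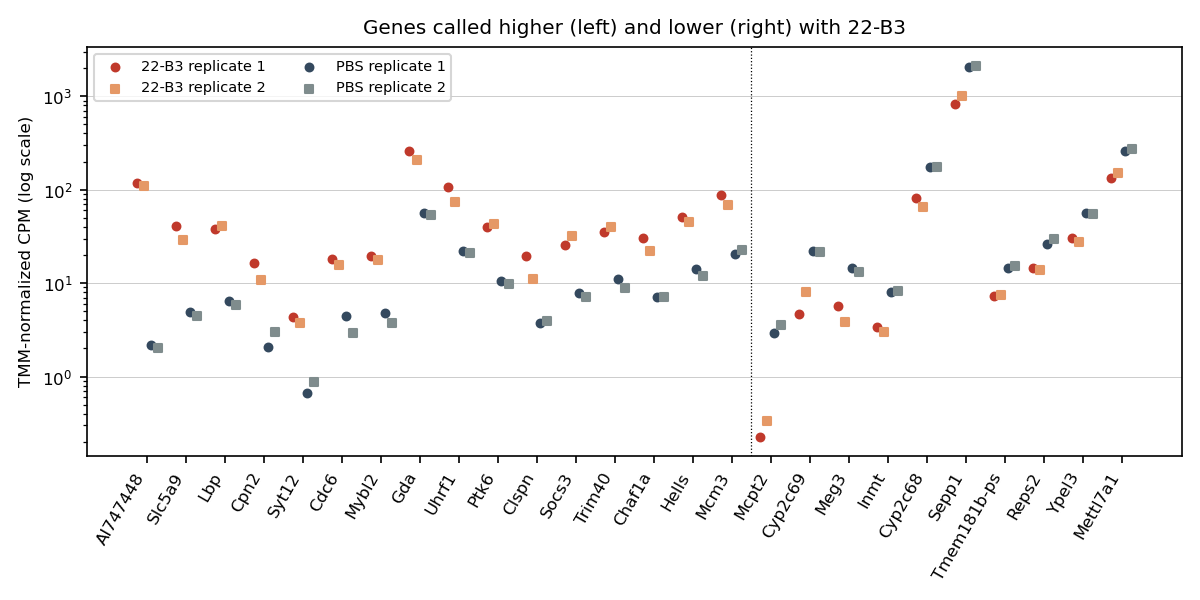
TMM-normalized CPM on a log scale for 16 genes called higher (left of the dotted line) and 10 called lower (right) with 22-B3. Points are single libraries, 22-B3 left of PBS within each gene. The 22-B3 and PBS points do not overlap in any of these 26 genes.

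Of the proteins that carry and shape the IL-22 signal, Socs3 rose and the receptor did not pass the test. Il22ra1 had 41.7 and 33.5 CPM with 22-B3, against 34.8 and 34.7 CPM with PBS (log2 change 0.11, SE 0.17). Il10rb had 41.2 and 39.3 CPM with 22-B3, against 42.7 and 37.8 CPM with PBS. Il22ra2, a soluble receptor that binds and blocks the cytokine, had 7.52 and 6.23 CPM with 22-B3, against 12.2 and 14.7 CPM with PBS, and did not pass (log2 change -0.97, edgeR adjusted p = 0.132). Stat3 itself had 195 and 137 CPM with 22-B3, against 105 and 98.9 CPM with PBS, and did not pass (log2 change 0.70, SE 0.19, edgeR adjusted p = 0.129). In all, 0 of 10 receptor and signalling genes were called by edgeR (2 at an unadjusted p under 0.05, and 1 higher and 1 lower by DESeq2). Over all 15354 tested genes 2848 had such an unadjusted p.

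Socs3 (ENSMUSG00000053113, chr11:117966079-117970047, minus strand) had 25.3 and 32.0 CPM with 22-B3, against 7.80 and 7.06 CPM with PBS. Both 22-B3 libraries lay above both PBS libraries, here with replicate 2 the higher, and the log2 change was 1.95 (SE 0.17; edgeR adjusted p = 0.00197). It was the only called gene of 16 in the STAT3 feedback and target list, whose median log2 change of 0.12 was near the 0.01 of all tested genes. Bcl3, another STAT3 target, had 45.9 and 40.2 CPM with 22-B3, against 29.1 and 30.9 CPM with PBS, and did not pass (edgeR adjusted p = 0.23). The 250 bases before the Socs3 start site are shown because they hold the palindrome TTCNNNGAA that STAT dimers bind, in capitals, at 154 bases before the start. They are from RefSeq's GRCm38.p6 assembly, the mm10 build, at chr11:117969367-117969616, minus strand, 5′ to 3′.
Socs3: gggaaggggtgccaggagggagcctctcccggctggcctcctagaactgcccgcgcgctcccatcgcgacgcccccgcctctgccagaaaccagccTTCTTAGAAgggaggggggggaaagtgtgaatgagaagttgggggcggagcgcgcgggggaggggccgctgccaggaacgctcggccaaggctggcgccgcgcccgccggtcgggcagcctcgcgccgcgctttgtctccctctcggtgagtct

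The letters TTCNNNGAA, which read the same on both strands, occur in 8.3% of 32851 RefSeq promoters (250 bases before to 50 after a start site). Of tested genes with a promoter sequence 8.38% held them, and in the STAT3 feedback list 2 of 13 did, 15.4%. A match is a description of the letters and not a site shown to be used.

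Among the 54 lists, those of DNA replication held the most genes called higher. Of 17 replication licensing and origin genes, which load and start the helicase that opens DNA before synthesis, 10 were called higher and 0 lower. Over all tested genes 0.977% were called higher. Both 22-B3 libraries lay above both PBS libraries in 28% of all tested genes and in 14 of these 17. Their median log2 change was 1.42, against 0.01 over all tested genes, and it was 1.52 in 22-B3 replicate 1 and 1.28 in replicate 2. Mcm6, a helicase subunit (chr1:128331590-128359664), had 181 and 143 CPM with 22-B3, against 43.8 and 47.9 CPM with PBS (log2 change 1.82, SE 0.16, edgeR adjusted p = 0.00197). Mcm5 had 124 and 119 CPM with 22-B3, against 40.3 and 41.3 CPM with PBS (log2 change 1.57, SE 0.13, edgeR adjusted p = 0.00197). Mcm7 had 113 and 97.6 CPM with 22-B3, against 33.3 and 35.8 CPM with PBS (log2 change 1.61, edgeR adjusted p = 0.00197). In these subunits both 22-B3 libraries lay well above both PBS libraries.

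The other helicase subunits were higher with 22-B3 too. Mcm3 had 87.5 and 68.8 CPM with 22-B3, against 20.4 and 22.9 CPM with PBS (log2 change 1.85, edgeR adjusted p = 0.00226). Mcm2 had 101 and 76.7 CPM with 22-B3, against 30.3 and 31.1 CPM with PBS (log2 change 1.54, edgeR adjusted p = 0.0044). Mcm4 had 76.7 and 51.1 CPM with 22-B3, against 22.3 and 20.6 CPM with PBS (log2 change 1.57, edgeR adjusted p = 0.0116). All 6 subunits of the Mcm2 to Mcm7 ring were called higher. The loaders Cdc6 and Cdt1, which place the ring on DNA, rose too. Cdc6 had 18 and 15.7 CPM with 22-B3, against 4.41 and 2.96 CPM with PBS (log2 change 2.19, SE 0.25, edgeR adjusted p = 0.00566). Cdt1 had 44.5 and 30.3 CPM with 22-B3, against 12.4 and 14.3 CPM with PBS (log2 change 1.48, edgeR adjusted p = 0.0241). Mcm10 and Cdc45, which act when the helicase fires, completed the 10 calls, with log2 changes of 1.42 and 1.39. Genes of the same list that did not pass included Gmnn, the inhibitor of Cdt1, with 25.5 and 41.0 CPM with 22-B3 and 26.1 and 23.5 CPM with PBS. The origin subunit Orc1 had 7.97 and 9.40 CPM with 22-B3, against 6.67 and 8.04 CPM with PBS.

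**Figure D3:**
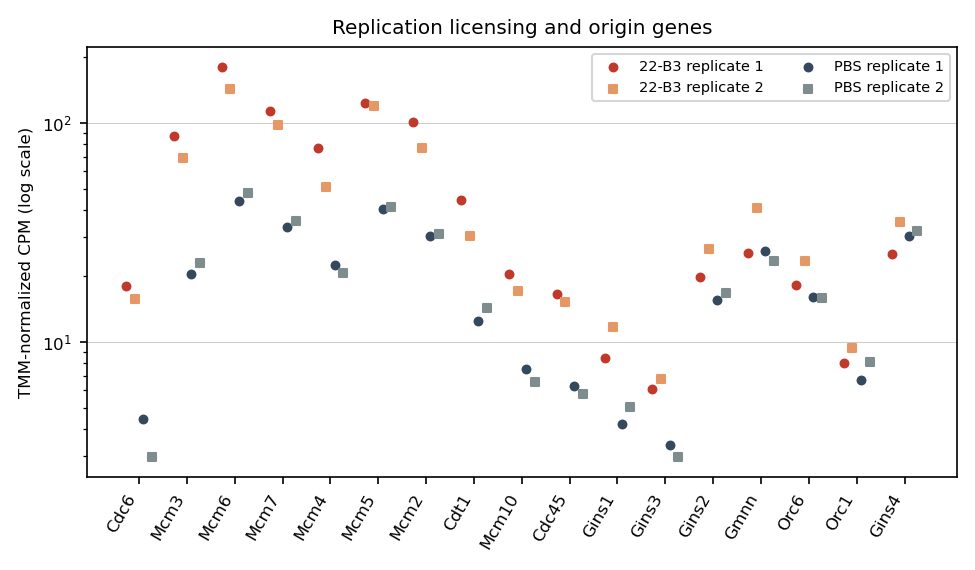
TMM-normalized CPM on a log scale of the 17 replication licensing and origin genes, ordered by log2 change, with single libraries as points and 22-B3 left of PBS. The 22-B3 points lie above the PBS points in the 10 called genes, such as Mcm6 at 181 and 143 against 43.8 and 47.9 CPM, and mix with them at the right, as in Gins4.

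Promoter sequences of called replication genes are given because they hold the letters bound by E2F factors, which turn on S phase genes. The motif was searched as TTTCCCGC, TTTCGCGC, TTTGCCGC or TTTGGCGC on either strand, and it is in capitals below, where overlapping matches run together. The 250 bases before the start are given for Mcm5 (chr8:75109259-75109508, plus strand, 2 overlapping matches) and Mcm6 (chr1:128359706-128359955, minus strand, 3 matches). Windows of 60 bases are given for Mcm7 (chr5:138172015-138172074, minus strand), Cdc6 (chr11:98907987-98908046, plus strand) and Uhrf1 (chr17:56304102-56304161, plus strand), all from RefSeq GRCm38.p6, 5′ to 3′.
Mcm5: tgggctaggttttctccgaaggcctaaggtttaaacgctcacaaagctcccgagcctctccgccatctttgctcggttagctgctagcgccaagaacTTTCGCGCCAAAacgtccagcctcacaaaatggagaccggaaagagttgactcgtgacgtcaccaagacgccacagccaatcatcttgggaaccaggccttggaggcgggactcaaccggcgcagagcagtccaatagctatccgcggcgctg
Mcm6: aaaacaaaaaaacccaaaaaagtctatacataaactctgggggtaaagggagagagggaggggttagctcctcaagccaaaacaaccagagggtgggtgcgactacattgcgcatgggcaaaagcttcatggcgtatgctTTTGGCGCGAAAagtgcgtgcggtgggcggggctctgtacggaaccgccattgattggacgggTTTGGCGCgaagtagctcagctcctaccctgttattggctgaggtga
Mcm7: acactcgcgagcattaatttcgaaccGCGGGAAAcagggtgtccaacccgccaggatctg
Cdc6: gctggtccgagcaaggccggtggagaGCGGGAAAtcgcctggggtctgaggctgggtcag
Uhrf1: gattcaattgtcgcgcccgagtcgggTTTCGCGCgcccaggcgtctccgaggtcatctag

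The first match lies 153 bases before the start in Mcm5, 110 in Mcm6, 165 in Mcm7, 138 in Cdc6 and 185 in Uhrf1. Mcm7 and Uhrf1 have 2 starts each in the table, and distances are from the one whose window is shown. Of all promoters 2.26% hold such a match, and of 11700 tested genes with a promoter sequence 505 did, 4.32%. In the list of DNA synthesis and nucleotide genes 7 of 23 with a promoter sequence did, 30.4%, and in the mitosis and spindle list 1 of 23, 4.35%. Sequences matched for 12 of the 17 licensing genes and 113 of the 150 genes called higher, under 80% of each, so no share is given for these sets.

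Genes that copy DNA and supply its building blocks rose as well. In the DNA synthesis and nucleotide list 14 of 27 tested genes were called higher and 0 lower, with a median log2 change of 1.01. Over all tested genes 0.977% were called higher. In 26 of 27 both 22-B3 libraries lay above both PBS libraries, beside 28% of all tested genes. The list medians were 0.88 in 22-B3 replicate 1 and 0.95 in replicate 2. Uhrf1, which recognises hemimethylated DNA behind the fork, had 108 and 74.0 CPM with 22-B3, against 22.0 and 21.1 CPM with PBS (log2 change 2.08, SE 0.20, edgeR adjusted p = 0.00304). Lig1, the ligase of the lagging strand, had 85.1 and 74.6 CPM with 22-B3, against 27.9 and 26.6 CPM with PBS (log2 change 1.55, edgeR adjusted p = 0.00197). Chaf1a, of the histone chaperone that packs new DNA, had 30.8 and 21.9 CPM with 22-B3, against 7.13 and 7.11 CPM with PBS (log2 change 1.88, edgeR adjusted p = 0.00562). Its partner Chaf1b had 29.5 and 24.9 CPM with 22-B3, against 9.85 and 8.88 CPM with PBS (log2 change 1.54, edgeR adjusted p = 0.0044). The ribonucleotide reductase subunit Rrm1 had 124 and 113 CPM with 22-B3, against 54.3 and 50.1 CPM with PBS (log2 change 1.18, edgeR adjusted p = 0.00566). Rrm2, the other subunit, had 42.4 and 46.8 CPM with 22-B3, against 16.4 and 18.8 CPM with PBS (log2 change 1.34, edgeR adjusted p = 0.00585). The sliding clamp Pcna, the polymerase subunits Pola1, Pold1, Pold2, Pole and Pole2, and Rpa1 and Rpa2, which coat single-stranded DNA, made up the other calls. Dnmt1, the maintenance DNA methyltransferase, had 104 and 52.3 CPM with 22-B3, against 28.3 and 25.1 CPM with PBS, and did not pass, with the 22-B3 libraries far apart (log2 change 1.55, SE 0.31, edgeR adjusted p = 0.0587).

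Mybl2, Hells and Clspn were named by the size of their rise and belong to none of these lists. Mybl2, a transcription factor of cycling cells, had 19.7 and 17.9 CPM with 22-B3, against 4.82 and 3.74 CPM with PBS (log2 change 2.13, SE 0.19, edgeR adjusted p = 0.00197). Hells, a chromatin remodeller, had 50.6 and 45.2 CPM with 22-B3, against 14.3 and 11.8 CPM with PBS (log2 change 1.87, edgeR adjusted p = 0.00197). Clspn, an adaptor of the replication checkpoint, had 19.6 and 11.1 CPM with 22-B3, against 3.74 and 3.89 CPM with PBS (log2 change 2.01, SE 0.31, edgeR adjusted p = 0.0241). The 22-B3 libraries agreed in Mybl2 and Hells, while Clspn was higher in replicate 1.

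The list of regulators of the step from G1 to S phase had a median of 0.46. In it 4 of 23 tested genes were called higher, beside 0.977% of all tested genes, and 0 lower. They were the transcription factors E2f1, E2f2 and E2f8 and the cyclin Ccne1. E2f8, which represses E2F targets late in S phase, had 30.2 and 26.2 CPM with 22-B3, against 8.41 and 7.79 CPM with PBS (log2 change 1.80, edgeR adjusted p = 0.0044). E2f1 had 24.2 and 17.1 CPM with 22-B3, against 7.23 and 7.84 CPM with PBS (log2 change 1.45, edgeR adjusted p = 0.0178). The cyclin Ccnd1, which acts earlier in G1, had 116 and 108 CPM with 22-B3, against 77.1 and 78.2 CPM with PBS, and did not pass (log2 change 0.53, edgeR adjusted p = 0.106). The proto-oncogene Myc had 22.8 and 17 CPM with 22-B3, against 16.4 and 18.5 CPM with PBS.

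Of 27 mitosis and spindle genes 1 was called higher, Top2a, which untangles DNA, with 119 and 90.0 CPM with 22-B3 and 48.6 and 53.6 CPM with PBS (log2 change 1.03, SE 0.17, edgeR adjusted p = 0.0268). The mitotic cyclin Ccnb1 had 26.6 and 41.3 CPM with 22-B3, against 31.9 and 34.0 CPM with PBS (edgeR adjusted p = 0.933). The list median was 0.36, with 0.23 in 22-B3 replicate 1 and 0.40 in replicate 2. Over the 4 cell division lists together 29 of 94 tested genes were called higher and 0 lower, beside 0.977% of all tested genes called higher. These lists were chosen with earlier results of these data known. With the PBS libraries summed 0 of their genes were called by edgeR. Then 12 licensing, 19 DNA synthesis, 9 G1 and 7 mitotic genes had an unadjusted p under 0.05, beside 1002 of all 15354 tested genes.

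**Figure D4:**
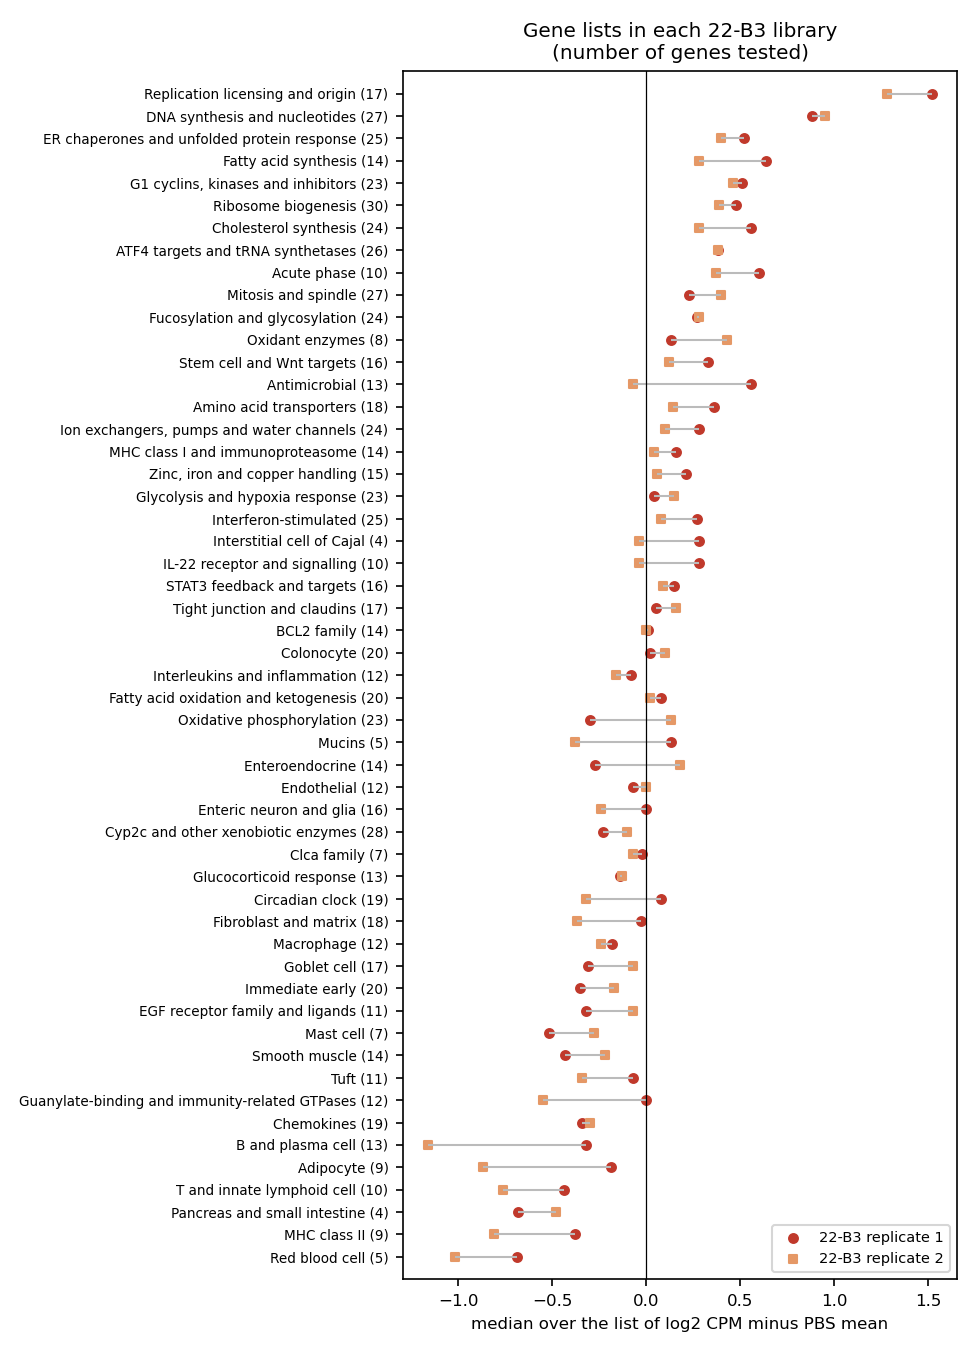
Median over each gene list of log2 CPM minus the PBS mean, with 22-B3 replicate 1 as circles and replicate 2 as squares, ordered by the fitted log2 change, for lists with at least 4 genes tested, whose number is in brackets. Replication licensing stands at 1.52 and 1.28 and DNA synthesis at 0.88 and 0.95, while B and plasma cell genes stand at -0.32 and -1.16.

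Acute phase genes are blood plasma proteins that rise in infection. Of 10 tested members 3 were called higher, Lbp, Lrg1 and Cpn2, beside 0.977% of all tested genes. Lbp, which binds bacterial lipopolysaccharide (chr2:158306493-158332852), had 38.4 and 41.3 CPM with 22-B3, against 6.36 and 5.86 CPM with PBS. Its 22-B3 values were close and its log2 change was 2.70 (SE 0.19, edgeR adjusted p = 0.0011), and it was the other rise called with the PBS libraries summed (edgeR adjusted p = 0.0283). Cpn2, a subunit of the plasma peptidase that inactivates complement peptides, had 16.6 and 10.8 CPM with 22-B3, against 2.05 and 3.01 CPM with PBS (log2 change 2.43, SE 0.28, edgeR adjusted p = 0.00538). Lrg1, a secreted leucine-rich glycoprotein, had 20.5 and 19.0 CPM with 22-B3, against 7.13 and 7.06 CPM with PBS (log2 change 1.48, edgeR adjusted p = 0.0044). Saa1, serum amyloid A, had 1747 and 1971 CPM with 22-B3, against 1093 and 1036 CPM with PBS, and did not pass (log2 change 0.80, edgeR adjusted p = 0.139). Saa1 shares reads with near-identical paralogs and is uncertain.

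Some barrier genes were called higher. Of 5 tested mucins 2 were called higher, both of the membrane-bound kind, beside 0.977% of all tested genes. The mucin median log2 change was -0.1, and 2 of the 5 had a log2 change above 0. Muc13 had 2348 and 1763 CPM with 22-B3, against 849 and 806 CPM with PBS (log2 change 1.31, SE 0.21, edgeR adjusted p = 0.026). Muc1 had 22.8 and 17.5 CPM with 22-B3, against 7.59 and 7.47 CPM with PBS (log2 change 1.42, edgeR adjusted p = 0.0114). Muc2, the gel-forming mucin of goblet cells, had 471 and 519 CPM with 22-B3, against 687 and 683 CPM with PBS, and did not pass (log2 change -0.47, edgeR adjusted p = 0.32). Duoxa2, which matures the epithelial peroxide-making oxidase, had 22.1 and 18 CPM with 22-B3, against 9.33 and 9.96 CPM with PBS (log2 change 1.05, edgeR adjusted p = 0.0304). The oxidase gene Duox2 had 100 and 61.8 CPM with 22-B3, against 31.5 and 33.5 CPM with PBS (log2 change 1.32, edgeR adjusted p = 0.0771). In the fucosylation and glycosylation list edgeR called 0 of 24, with 12 at an unadjusted p under 0.05 and 4 called higher by DESeq2, and their median log2 change was 0.32. Fut2, which adds terminal fucose, had 197 and 257 CPM with 22-B3, against 133 and 139 CPM with PBS (log2 change 0.74, edgeR adjusted p = 0.0956). Of 17 tight junction and claudin genes edgeR called 0, with 4 at an unadjusted p under 0.05 and 2 called higher by DESeq2. Both counts of unadjusted p stand beside 2848 of all 15354 tested genes.

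The tyrosine kinase Ptk6 of differentiating gut epithelium (chr2:181193721-181202789) had 39.5 and 42.8 CPM with 22-B3, against 10.6 and 9.76 CPM with PBS (log2 change 2.02, SE 0.15, edgeR adjusted p = 0.00156). Trim40, of the tripartite motif ubiquitin ligases, had 35.1 and 39.7 CPM with 22-B3, against 11.1 and 8.77 CPM with PBS (log2 change 1.91, edgeR adjusted p = 0.00201). Trim15, a relative, had 14.1 and 20.6 CPM with 22-B3, against 5.74 and 5.97 CPM with PBS (log2 change 1.56, edgeR adjusted p = 0.0167). These genes stood at or above replicate 1 in replicate 2 of 22-B3, unlike most of the rises.

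Ly6g rose, the 1 call among 3 tested neutrophil genes. Ly6g (chr15:75155240-75159126) had 303 and 375 CPM with 22-B3, against 107 and 118 CPM with PBS (log2 change 1.59, SE 0.16, edgeR adjusted p = 0.00367). It is the usual surface marker of mouse neutrophils, but other neutrophil markers were near 0 here. S100a9 had 1 and 14 counts with 22-B3 and 5 and 8 with PBS, S100a8 had 3 and 6 counts with 22-B3 and 0 and 5 with PBS, and Csf3r had 0.505 and 0.556 CPM with 22-B3 and 0.564 and 0.675 CPM with PBS. Its relative Ly6a, a surface protein of many cell types and named after its values were seen, had 532 and 640 CPM with 22-B3, against 185 and 167 CPM with PBS (log2 change 1.74, edgeR adjusted p = 0.00367). Reads of this family may be shared between paralogs, so both levels are uncertain.

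Immune-sensing genes were called singly. Zbp1, a sensor of left-handed nucleic acid helices, had 41.5 and 36.1 CPM with 22-B3, against 10.7 and 11.5 CPM with PBS (log2 change 1.81, SE 0.15, edgeR adjusted p = 0.00197), the only call among 25 interferon-stimulated genes. Il18bp, the secreted inhibitor of interleukin-18, had 10.7 and 6.40 CPM with 22-B3, against 2.51 and 3.11 CPM with PBS (log2 change 1.60, edgeR adjusted p = 0.0415). The neutrophil-attracting chemokine Cxcl5 had 4.55 and 8.40 CPM with 22-B3, against 0.410 and 1.14 CPM with PBS, and did not pass (log2 change 3.05, SE 0.68, edgeR adjusted p = 0.0784). Of 19 chemokines edgeR called 0, with 6 at an unadjusted p under 0.05 and 1 called higher by DESeq2. Their median log2 change was -0.36, and 8 of the 19 had a log2 change above 0. Both 22-B3 libraries lay below both PBS libraries in 8 of them (25.6% of all tested genes) and above both in 1 (28% of all). Of 12 guanylate-binding and immunity-related GTPases edgeR called 0, with 2 at an unadjusted p under 0.05 and 0 called by DESeq2. Such an unadjusted p was found in 2848 of all 15354 tested genes.

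Among protein folding genes of the endoplasmic reticulum calls were few. Of 25 chaperone and unfolded protein response genes 2 were called higher, 0 lower, with a median log2 change of 0.46. Over all tested genes 0.977% were called higher. Both 22-B3 libraries lay above both PBS libraries in 20 of the 25, beside 28% of all tested genes. Hsp90b1, the lumenal HSP90 chaperone, had 462 and 407 CPM with 22-B3, against 231 and 238 CPM with PBS (log2 change 0.89, SE 0.16, edgeR adjusted p = 0.0382). Creld2, a stress-induced ER protein, had 53.1 and 61.8 CPM with 22-B3, against 33.2 and 33.1 CPM with PBS (log2 change 0.79, edgeR adjusted p = 0.0411). Hspa5, the main lumenal HSP70, had 674 and 824 CPM with 22-B3, against 450 and 430 CPM with PBS (log2 change 0.77, edgeR adjusted p = 0.081). With upper-quartile scaling 0 of the 25 were called and their median was 0.34. The promoters of both called genes are shown because each holds the ER stress response element (ERSE, the letters CCAAT and CCACG with 9 free bases between them), in capitals, on either strand (RefSeq GRCm38.p6). Hsp90b1 is at chr10:86705445-86705694, minus strand, with 2 matches, and Creld2 is a 60-base window at chr15:88819499-88819558, plus strand.
Hsp90b1: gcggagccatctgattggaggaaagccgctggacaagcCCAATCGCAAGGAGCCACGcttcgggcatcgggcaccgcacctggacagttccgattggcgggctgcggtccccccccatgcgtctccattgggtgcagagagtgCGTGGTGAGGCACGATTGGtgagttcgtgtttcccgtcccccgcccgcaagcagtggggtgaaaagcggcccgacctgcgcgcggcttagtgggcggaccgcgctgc
Creld2: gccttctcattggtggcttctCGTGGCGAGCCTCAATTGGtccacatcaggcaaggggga

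The element occurs in 0.119% of all promoters and in 0.162% of tested genes with a promoter sequence. It was found in 8 of the 20 genes of the chaperone list with a promoter sequence, 40%, called or not.

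Biosynthetic lists had small positive medians and few calls, to be set beside 0.977% of all tested genes called higher. Of 26 ATF4 targets and tRNA synthetases, 2 were called higher, the methionyl and asparaginyl synthetases Mars and Nars, whose log2 changes were 0.75 for Mars (edgeR adjusted p = 0.0415) and 0.76 for Nars (edgeR adjusted p = 0.0472). Gar1, of the pseudouridylation particle, was the 1 call among 30 ribosome biogenesis genes, with 29.2 and 26.4 CPM with 22-B3 and 15.2 and 15.2 CPM with PBS (edgeR adjusted p = 0.0498). Of 14 fatty acid synthesis genes edgeR called 0, with 9 at an unadjusted p under 0.05 and 4 called higher by DESeq2. Their median was 0.64 in 22-B3 replicate 1 and 0.28 in replicate 2. Over all 15354 tested genes 2848 had an unadjusted p under 0.05. Oxidative phosphorylation genes had a median of -0.30 in replicate 1 and 0.13 in replicate 2, on opposite sides of PBS.

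Fewer genes fell. Cyp2c68, a cytochrome P450 of drug and lipid oxidation (chr19:39688834-39741054), had 82.4 and 65.9 CPM with 22-B3, against 174 and 175 CPM with PBS (log2 change -1.24, SE 0.19, edgeR adjusted p = 0.0244). Cyp2c69, its paralog, had 4.72 and 8.12 CPM with 22-B3, against 22.1 and 21.6 CPM with PBS (log2 change -1.76, SE 0.29, edgeR adjusted p = 0.0273). They were the 2 called of 28 xenobiotic enzymes tested, beside 0.156% of all tested genes called lower. Reads may be shared between such paralogs, so both values are uncertain. Sepp1, the plasma selenium carrier, had 836 and 1010 CPM with 22-B3, against 2084 and 2133 CPM with PBS (log2 change -1.19, edgeR adjusted p = 0.0415). Mettl7a1, a membrane methyltransferase-like protein, had 134 and 149 CPM with 22-B3, against 259 and 272 CPM with PBS (log2 change -0.91, SE 0.14, edgeR adjusted p = 0.0201). Pck1, the enzyme that commits carbon to gluconeogenesis, had 92.9 and 100 CPM with 22-B3, against 170 and 165 CPM with PBS (log2 change -0.79, edgeR adjusted p = 0.0352). The 22-B3 libraries were close in each of these except Cyp2c69, and the groups did not overlap.

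Further falls were smaller or in low-level genes. Meg3, an imprinted non-coding RNA, had 5.73 and 3.84 CPM with 22-B3, against 14.7 and 13.1 CPM with PBS (log2 change -1.54, edgeR adjusted p = 0.0295). Inmt, an N-methyltransferase, had 3.42 and 3 CPM with 22-B3, against 8.10 and 8.30 CPM with PBS (log2 change -1.35, edgeR adjusted p = 0.0351). Ypel3 had 30.1 and 27.6 CPM with 22-B3, against 55.7 and 54.6 CPM with PBS (log2 change -0.93, edgeR adjusted p = 0.0195). Reps2, of endocytosis, and the pseudogene Tmem181b-ps were lower as well, with log2 changes of -0.97 for Reps2 (edgeR adjusted p = 0.0304) and -1.01 for Tmem181b-ps (edgeR adjusted p = 0.0386). Mcpt2, a mucosal mast cell protease (chr14:56042123-56044634), had 0.225 and 0.334 CPM with 22-B3, against 2.92 and 3.53 CPM with PBS (log2 change -3.50, SE 0.49, edgeR adjusted p = 0.0151). It rests on 4 and 6 counts with 22-B3. The other tested mast cell genes did not pass. Of the 7 tested, Mcpt2 included, 1 had a log2 change above 0, and the list median was -0.29. In 3 of them both 22-B3 libraries lay below both PBS libraries, beside 25.6% of all tested genes. In 0 of them both lay above, beside 28% of all tested genes. Mcpt1, a paralog with which reads may be shared, had 1.07 and 2.56 CPM with 22-B3, against 4.77 and 4.93 CPM with PBS (edgeR adjusted p = 0.309). Cpa3, the mast cell carboxypeptidase, had 0.505 and 0.612 CPM with 22-B3, against 0.359 and 0.571 CPM with PBS (edgeR adjusted p = 0.828). Bulk tissue cannot tell fewer cells of a type from less RNA per cell.

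Cell type lists gave few calls. All 14 smooth muscle genes lay lower in both 22-B3 libraries than in both PBS libraries, with a median log2 change of -0.29. Of all tested genes 25.6% lay lower in this way. By edgeR 0 of the 14 were called, 0 had an unadjusted p under 0.05 and DESeq2 called 0. Over all 15354 tested genes 2848 had an unadjusted p under 0.05, the background for the lists that follow. Tagln, an actin-binding protein of smooth muscle, had 1908 and 2681 CPM with 22-B3, against 3406 and 3458 CPM with PBS. Of 9 MHC class II genes, which present antigen, 8 lay lower in both 22-B3 libraries. Among them edgeR called 0, with 5 at an unadjusted p under 0.05 and 4 called lower by DESeq2, for a median of -0.68. H2-Aa had 119 and 97.6 CPM with 22-B3, against 189 and 190 CPM with PBS (log2 change -0.81, edgeR adjusted p = 0.0886). B and plasma cell genes had a median of -0.32 in 22-B3 replicate 1 and -1.16 in replicate 2, and edgeR called 0 of 13, with 4 at an unadjusted p under 0.05 and 3 called lower by DESeq2. Without 22-B3 replicate 1, 2 MHC class II and 4 B and plasma cell genes were called lower, and without replicate 2 edgeR called 0 of either list. Of 12 macrophage genes edgeR called 0, with 4 at an unadjusted p under 0.05 and 1 called lower by DESeq2. Their median log2 change was -0.21, and 4 of the 12 had a log2 change above 0. Lyz2 of this cell type had 174 and 189 CPM with 22-B3, against 339 and 347 CPM with PBS (log2 change -0.92, edgeR adjusted p = 0.0657). Of 16 stem cell and Wnt target genes edgeR called 0, 2 had an unadjusted p under 0.05 and DESeq2 called 1 higher. Lgr5, the crypt base stem cell receptor, had 8.42 and 7.29 CPM with 22-B3, against 5.08 and 6.64 CPM with PBS (edgeR adjusted p = 0.443).

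The 2 libraries of 22-B3 were over 2-fold apart in 871 genes, 497 higher in replicate 1 (3.24%) and 374 higher in replicate 2 (2.44%), against 289 genes in either direction (1.88%) between the PBS libraries. Against the PBS mean, replicate 1 was over 2-fold higher in 449 genes (2.92%) and replicate 2 in 286 (1.86%), with 158 genes in both (1.03%). Below the PBS mean by over 2-fold were 618 genes in replicate 1 (4.03%) and 560 in replicate 2 (3.65%), with 150 in both (0.977%). The libraries went over 2-fold opposite ways in 20 genes with replicate 1 up and in 11 with replicate 2 up. These differences between single libraries have no test.

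Some of the widest gaps were in epithelial genes. Nxpe4 (chr9:48362041-48400025), a neurexophilin-like gene, had 98.9 and 1.89 CPM with 22-B3, 79.6 and 2.05 CPM with WT IL-22, and 2.62 and 2.02 CPM with PBS. It was high in replicate 1 of each treated pair and at the PBS level in replicate 2. St3gal4 (chr9:35046579-35116810), a sialyltransferase, had 527 and 16.7 CPM with 22-B3, 456 and 269 CPM with WT IL-22, and 221 and 234 CPM with PBS, so that 1 library of 22-B3 stood above and 1 far below PBS. The fitted log2 change of St3gal4 was 0.26, and it was -3.80 without replicate 1 and 1.21 without replicate 2. Ang4, an antimicrobial ribonuclease of secretory cells, had 403 and 74.6 CPM with 22-B3, against 550 and 554 CPM with PBS. Itln1, a lectin of goblet cells, had 13.8 and 2.17 CPM with 22-B3, against 12.8 and 14.2 CPM with PBS. Both were near PBS in replicate 1 and low in replicate 2.

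The antimicrobial lectins Reg3b and Reg3g were uneven the other way. Reg3b (chr6:78370885-78373466) had 26.6 and 363 CPM with 22-B3, 1103 and 168 CPM with WT IL-22, and 0 counts in both PBS libraries. Set against a floor of 3 counts over both PBS libraries, its mean with 22-B3 was at least 2519-fold higher, but it did not pass (edgeR adjusted p = 0.288), while DESeq2 called it (adjusted p = 1.54e-06). The related Reg3g had 6.62 and 90.4 CPM with 22-B3, 332 and 50.1 CPM with WT IL-22, and 0.462 and 0.311 CPM with PBS (edgeR adjusted p = 0.279). Every treated library thus lay above every PBS library for both genes, at levels that differed several-fold within each pair. Reads may be shared within the pair of paralogs.

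Keratins and other genes of squamous epithelium were higher in 22-B3 replicate 2 than in replicate 1. Krt5, a basal layer keratin, had 0.0561 and 8.23 CPM with 22-B3, against 0.513 and 1.40 CPM with PBS. Krt10, of the upper layers, had 2.47 and 25.9 CPM with 22-B3, against 2.62 and 2.65 CPM with PBS. Lor, the cornified envelope protein loricrin, had 1.40 and 7.01 CPM with 22-B3, against 2 and 1.30 CPM with PBS. In a list of 16 such genes, chosen after values were seen, 10 were tested and all 10 were highest of all 6 libraries in 22-B3 replicate 2. Krt6a, Dsc3, Lgals7 and Spink5 passed the count filter only through that library, with 42, 37, 66 and 28 counts there. The choice of genes and the filter both favoured this outcome, so it is a description and no support. Sprr1a, a cornified envelope precursor, was also above PBS with WT IL-22, with 1.85 and 8.23 CPM with 22-B3, 7.35 and 5.52 CPM with WT IL-22, and 2.36 and 3.32 CPM with PBS. Summed over the list, 22-B3 had 8.31 and 68.5 CPM, WT IL-22 12.4 and 12.2 CPM, and PBS 9.90 and 14.5 CPM. Krt36, a hair-type keratin, had 1.96 and 16.2 CPM with 22-B3, 3 and 2.67 CPM with WT IL-22, and 0.718 and 0.571 CPM with PBS, above PBS in all treated libraries. Of 9 adipocyte genes tested, 0 had a log2 change above 0 against PBS and 1 was called lower. That gene was Pck1, already given among the falls, and the markers Adipoq, Plin1, Fabp4 and Cfd did not pass. Their median log2 difference from PBS was -0.19 in 22-B3 replicate 1 and -0.87 in replicate 2. Between the 2 libraries of 22-B3 these genes did not all differ the same way. Adipoq, the adipocyte hormone adiponectin, had 6.96 and 1.61 CPM with 22-B3, against 9.18 and 6.90 CPM with PBS. Fabp4, a fatty acid carrier, was the higher in replicate 2, with 21.2 and 27.9 CPM with 22-B3, against 38.2 and 34.0 CPM with PBS. The B cell receptor component Cd79a had 12.0 and 2.73 CPM with 22-B3, against 14.5 and 15.6 CPM with PBS. The part of tissue sampling in these gaps was not tested.

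Immunoglobulin variable segments made up 6 of the 150 rises and 7 of the 24 falls. Ighv1-39 (chr12:114914599-114915032) had 0.449 and 0 CPM with 22-B3, against 34.0 and 32.4 CPM with PBS (edgeR adjusted p = 0.00156). Igkv6-13 had 0.954 and 0.779 CPM with 22-B3, against 30.6 and 31.7 CPM with PBS (edgeR adjusted p = 0.000428), and Igkv10-94 had 10.05 and 11.01 CPM, against 41.9 and 39.8 CPM with PBS. These were the 3 falls still called with the PBS libraries summed (edgeR adjusted p = 0.0222, 0.00547 and 0.0484 in that order). Ighv1-54 rose, with 13.1 and 10.2 CPM with 22-B3, 0.0937 and 0 CPM with WT IL-22, and 1.23 and 1.14 CPM with PBS (edgeR adjusted p = 0.0044 against PBS). Of 121 tested segments, 17 had at most 1 count in a 22-B3 library and at least 10 in both PBS libraries. Such segments pass the count filter through PBS alone. The reverse case and the share over all tested genes were not counted, so this number is a description and no support for a loss. Differences in B cell clones between animals and what the treatment did cannot be told apart.

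The direct difference between 22-B3 and WT IL-22, at the same dose and time, passed the test in 15 genes, 4 higher with 22-B3 (0.0261% of those tested) and 11 lower (0.0716%). Of the genes lower with 22-B3, Socs3 had the largest difference, with 25.3 and 32.0 CPM with 22-B3, against 248 and 254 CPM with WT IL-22 (log2 difference -3.13, SE 0.16, edgeR adjusted p = 0.000343). Mfsd2a, a lysophospholipid transporter, had 5.05 and 4.12 CPM with 22-B3, against 37.8 and 26.7 CPM with WT IL-22 (log2 difference -2.81, edgeR adjusted p = 0.00487), and with PBS 2.21 and 2.28 CPM. Fut2 had 197 and 257 CPM with 22-B3, against 730 and 639 CPM with WT IL-22 (log2 difference -1.60, edgeR adjusted p = 0.0233). Trim15 and Ptk6 also lay below WT IL-22, by log2 differences of -1.97 for Trim15 (edgeR adjusted p = 0.0193) and -1.15 for Ptk6 (edgeR adjusted p = 0.0298), while above PBS as given earlier. In each of these the 22-B3 libraries lay between PBS and WT IL-22.

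Among the other calls lower than with WT IL-22 were 2 of 25 interferon-stimulated genes and 1 of 12 guanylate-binding and immunity-related GTPases. Gbp2, a guanylate-binding GTPase, had 51.2 and 42.5 CPM with 22-B3, 126 and 175 CPM with WT IL-22, and 40.1 and 46.3 CPM with PBS (log2 difference from WT IL-22 of -1.68, SE 0.19, edgeR adjusted p = 0.0237). Ifit1, an interferon-induced RNA-binding protein, had 11.1 and 9.84 CPM with 22-B3, 26.7 and 27.3 CPM with WT IL-22, and 10.001 and 9.08 CPM with PBS (edgeR adjusted p = 0.0292). Oasl2, of the oligoadenylate synthetase family, had 29.6 and 23.5 CPM with 22-B3, 81.5 and 70.4 CPM with WT IL-22, and 16.5 and 11.9 CPM with PBS (edgeR adjusted p = 0.0393). Chst4, a sulfotransferase of mucins and endothelial ligands, had 77.2 and 103 CPM with 22-B3, 231 and 233 CPM with WT IL-22, and 84.2 and 86.1 CPM with PBS (edgeR adjusted p = 0.0292). Ccnd1 was lower than with WT IL-22 too, by -1.01 (edgeR adjusted p = 0.0393), and the segment Igkv5-43 was the remaining fall. Higher with 22-B3 were Cyp2c68, with 82.4 and 65.9 CPM against 16.1 and 23.4 CPM with WT IL-22 (log2 difference 1.91, edgeR adjusted p = 0.0193), and Fxyd4, a sodium pump regulator, with 83.2 and 63.5 CPM against 23.8 and 25.9 CPM (edgeR adjusted p = 0.0233). The other 2 were the segments Ighv1-54 and Igkv2-109.

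Replication genes did not pass the test against WT IL-22. Mcm6 had 181 and 143 CPM with 22-B3, against 213 and 193 CPM with WT IL-22, a log2 difference of -0.33 (SE 0.16, edgeR adjusted p = 0.537). Over the 17 licensing genes the median log2 difference was -0.30, over the 27 DNA synthesis genes -0.09, and 0 of either list were called. AI747448 had 118 and 109 CPM with 22-B3, against 177 and 199 CPM with WT IL-22, a log2 difference of -0.73 (SE 0.14, edgeR adjusted p = 0.119). A p that misses the threshold does not show that variant and wild type acted alike. With the PBS libraries summed, 2 genes were called higher and 2 lower than with WT IL-22 (0.013% each).

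**Figure D5:**
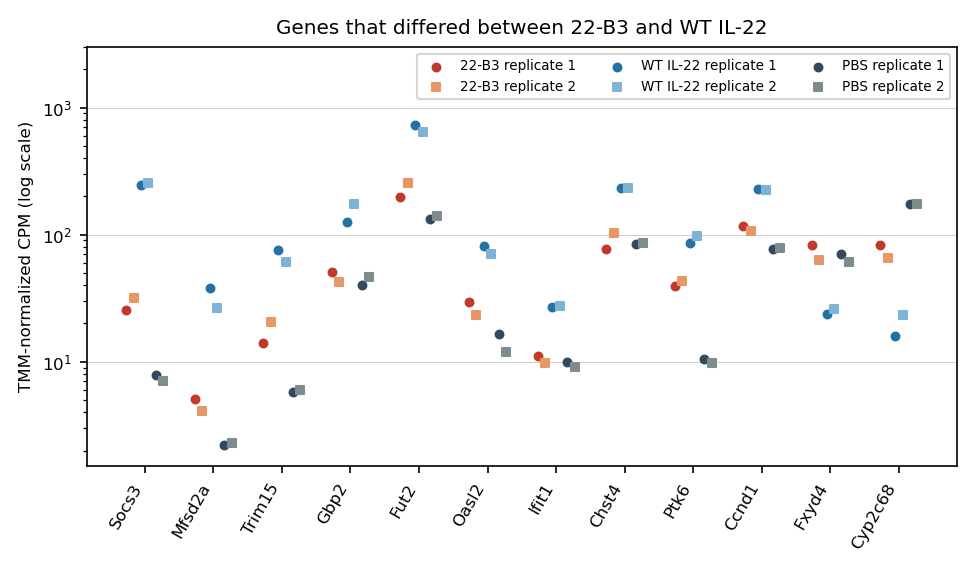
TMM-normalized CPM on a log scale of 12 genes called in the direct difference between 22-B3 and WT IL-22, with 22-B3 points at the left, WT IL-22 in the middle and PBS at the right within each gene. Socs3 stands at 25.3 and 32.0 CPM with 22-B3 and 248 and 254 CPM with WT IL-22, while Gbp2, Ifit1 and Chst4 with 22-B3 lie near their PBS values.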

How the data were processed

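RNA was measured by poly(A)-selected sequencing of colon, with 2 libraries each of 22-B3, WT IL-22 and PBS. Tissue was frozen and ground and libraries were made with NEBNext Ultra II kits, per the labels' protocols. The submitters' processing notes name STAR 2.5 and mm10; the counting tool and its strand setting are not given in the sources used here. The deposited table of raw counts per gene was the main input. The authors' deposited FPKM follows from count, gene length and library total to a relative deviation of 5e-12, and no test used it.

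Genes with a count of at least 10 in at least 2 of the 4 libraries of 22-B3 and PBS were fitted with edgeR 4.0.16 (R 4.3.3; TMM scaling, robust quasi-likelihood test, 1 mean per group, all 6 libraries), at a Benjamini-Hochberg adjusted p under 0.05. CPM are TMM-normalized; per-library log2 values have a prior count of 2. SE is the log2 change over the square root of F. The floor for a group at 0 is 3 counts over both libraries and covers counting error only. In counts simulated for 22-B3 against PBS over 15354 genes, 98% of 100 genes changed 4-fold and 65% of 100 changed 2-fold were called, and 0.0462% of 15154 unchanged genes. In all, 17 alternatives were run, including DESeq2 1.42.0 and limma 3.58.1.

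The genes named were the 15 largest rises and 10 largest falls with groups not overlapping and a mean count of at least 50 in the higher group, without immunoglobulin segments and clone-named genes; called genes of 54 lists, or the smallest p values; the genes most apart between the 22-B3 libraries; 5 immunoglobulin segments a direction; and calls against WT IL-22. Others were chosen after their values were seen. Members and lists were chosen with earlier results of these data known. Promoters are RefSeq's, GRCm38.p6. Some results that need withheld items are not reported here.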

Additional observations from a re-analysis of the deposited data

How the results depend on the processing

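Among the 200 named values, no gene called in the comparison as reported changed direction. Called genes that are not named were not checked for this. Counts against PBS (150 higher, 24 lower) stayed within 1.5 times with RLE scaling, filterByExpr and the removal of Yam1, Lars2 and Gm26917. They were 92 higher with upper-quartile scaling, 353 higher and 78 lower with no filter, 557 and 139 with DESeq2, 98 and 38 with only the 4 libraries, and 2 and 3 with the PBS libraries summed. Leaving out 1 library at a time gave 2 to 1448 higher and 3 to 870 lower; the low ends came without a PBS library and the high ends without 22-B3 replicate 2. Against WT IL-22 (4 higher, 11 lower) the counts were 36 and 65 with no filter, 76 and 114 with DESeq2, 2 and 2 with the PBS libraries summed, and 2 higher without immunoglobulin segments; leaving out 1 library gave 1 to 449 higher and 2 to 222 lower. Lists with a called gene numbered 20, 39 with DESeq2, 2 with the PBS libraries summed, and 2 to 46 leaving out 1 library. Genes over 2-fold apart between the 22-B3 libraries numbered 871, and 2702 with no filter. Of 200 named values, 80 were no longer past the threshold with the PBS libraries summed. The causes were not tested. Whether replicate numbers pair the samples was not tested. Deviations of same-numbered libraries had r = 0.042 between 22-B3 and PBS and 0.216 between 22-B3 and WT IL-22. Such correlations cannot settle a pairing. With the replicate block, counts were 805 higher and 281 lower against PBS, 70 and 111 against WT IL-22, and 41 lists. With 2 libraries a group, small differences at this depth were often not detectable.

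Log2 changes of 20 named genes, none of them called in the comparison as reported, changed sign under some setting. Leaving out 1 library at a time gave ranges of -0.32 to 5.41 for Nxpe4, -3.80 to 1.21 for St3gal4, -2.66 to 0.030 for Itln1, -2.20 to 0.37 for Cyp2e1, -1.96 to 0.37 for Car3, -1.97 to 0.23 for Faim3, -3.95 to 3.07 for Krt5, -0.091 to 3.27 for Krt10, -1.41 to 0.93 for Ugt2b5, -0.23 to 2.05 for Lor, -0.33 to 2.16 for Krt14, -0.61 to 1.505 for Sprr1a, -0.082 to 0.47 for Tyk2, -0.0048 to 0.25 for Hoxb13, -0.069 to 0.39 for Myc, -0.082 to 0.26 for Il22ra1, -0.031 to 0.63 for Cpa3, -0.32 to 0.14 for Gins4, -0.31 to 0.30 for Ccnb1 and -0.087 to 0.091 for Il10rb. St3gal4 passed the test in both directions, lower without 22-B3 replicate 1 (edgeR adjusted p = 0.00269) and higher without replicate 2 (edgeR adjusted p = 0.023). With limma-voom St3gal4 was -1.28, Krt5 -0.059, Ugt2b5 -0.21 and Il10rb 0.0016. With upper-quartile scaling Il22ra1 was -0.0040 and Ccnb1 -0.074. Il10rb was 0.0024 with the PBS libraries summed, and with the replicate block it was 0.0017 and St3gal4 -0.66.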
